A study of Mus musculus with 6 samples.

Results

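The 8 genes described here are Saa3, Lcn2, Hp, Lrg1, Serpina3n, Cp, Il6 and Ch25h, named acute phase and inflammatory genes that were read by symbol from each of the 6 deposited count tables, out of 20490 genes present in all 6. They were followed in fibroblasts (FBs) of the mouse lung, by library and by FB subset, with cultured FBs and epithelial cells beside. Acute phase proteins are secreted proteins whose production rises when inflammatory cytokines reach a cell. The liver is their best known source, and interleukin 6 acting through STAT3, interleukin 1 acting through NF-κB, and factors of the C/EBP family are their classical inducers. Saa3 encodes a serum amyloid A that is made mainly outside the liver. Lcn2 encodes lipocalin 2, which binds iron-carrying siderophores, Hp encodes haptoglobin, which binds free haemoglobin, and Lrg1 encodes a secreted leucine-rich glycoprotein. Serpina3n encodes a secreted serine protease inhibitor and Cp encodes ceruloplasmin, the copper-carrying ferroxidase. Il6 encodes the cytokine itself, and Ch25h encodes the enzyme that makes 25-hydroxycholesterol, a lipid with antiviral and immune signalling roles.

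The study profiled FBs from Pdgfra-GFP reporter mice, in which the fluorescent protein is driven from the Pdgfra locus, by single-cell RNA sequencing. GFP+ cells were sorted from enzymatically digested lungs of adult male mice, and cells of 3 mice were pooled into each library, so that each group was 1 library and no spread between mice could be measured. In the single dose experiment mice received PBS or bleomycin, an agent that injures the lung and leads to fibrosis, into the oropharynx in 50 µl, and lungs were taken at day 14. The dose was labelled inconsistently, as 2 U/kg in the protocol and 4 U/kg in the treatment field. In the repetitive experiment PBS or bleomycin was given in 3 weekly doses, of 1, 1 and 0.5 U/kg for bleomycin, and lungs were taken 14 days after the last. For the organoids, GFP+ FBs from mice given PBS (normal) or 2 U/kg bleomycin (fibrogenic) were mixed in matrigel with type 2 alveolar epithelial cells (AEC2), which were sorted by a tomato label from tamoxifen-induced SpcCreER × Rosa-td26 mice, and were cultured for 2 weeks. All in vivo and organoid FBs thus carried the reporter, and the controls received the PBS vehicle by the same route.

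On mouse build GRCm38, Saa3 lies at chr7:46711998-46715700, Lcn2 at chr2:32384633-32388252, Hp at chr8:109575128-109579172 and Lrg1 at chr17:56119678-56122001, each on the minus strand. Serpina3n at chr12:104406729-104414329, Cp at chr3:19957054-20009145 and Il6 at chr5:30013114-30019981 lie on the plus strand, and Ch25h lies at chr19:34473778-34475164 on the minus strand. No pair of the genes shares a chromosome. RefSeq start sites on GRCm38 gave 8 windows of the 250 bases before a start for 7 of the genes, and Hp had none. Both strands of each window were searched for a C/EBP-type motif, TTGCNNAA, a STAT-type motif, TTCNNNGAA, and the NF-κB motif. The C/EBP-type motif was held by 5 of the 8 windows (Saa3, Lcn2, Cp, Il6 and Ch25h) and by 9.56% of 32851 windows of the same length. No window of these genes held the STAT-type motif, against 7.02% of all windows, and the Il6 window held the NF-κB motif, against 7.25%. Such matches describe the letters and show neither binding nor use. The windows of Saa3 and Il6 are shown because these genes differed most clearly in the repetitive experiment, Saa3 being higher and Il6 near level with bleomycin, with the matches in capitals. The first is the exon-free part of the Saa3 window, 226 bases at chr7:46715701-46715926 on the minus strand, with a C/EBP-type match at 99 to 92 bases before the start. The other is the whole Il6 window, 250 bases at chr5:30012864-30013113 on the plus strand, with a C/EBP-type match at 128 to 121 and the NF-κB match at 44 to 35 bases before the start.
Saa3: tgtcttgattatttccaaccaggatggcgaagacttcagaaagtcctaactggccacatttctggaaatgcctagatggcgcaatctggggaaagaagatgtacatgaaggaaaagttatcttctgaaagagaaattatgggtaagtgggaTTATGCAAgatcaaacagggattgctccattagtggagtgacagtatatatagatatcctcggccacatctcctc
Il6: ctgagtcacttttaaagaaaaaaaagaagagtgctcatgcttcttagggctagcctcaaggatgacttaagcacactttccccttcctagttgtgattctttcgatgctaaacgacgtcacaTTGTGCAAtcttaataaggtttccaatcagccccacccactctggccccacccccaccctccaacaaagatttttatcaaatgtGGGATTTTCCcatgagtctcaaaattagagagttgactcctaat

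The libraries held 1015 to 10737 cell barcodes with median depths of 2478 to 36841 unique molecular identifiers (UMIs, each a counted RNA molecule). A barcode was gated as an FB when it had at least 3 of 8 FB markers and more than of any other class, which took 85.4% to 89.6% of barcodes in the lung libraries and 42.3% and 56.3% in the organoids. The repetitive bleomycin library was the shallowest, and 42.2% of its FBs held under 2000 UMIs against 2.83% in repetitive PBS. The 8 FB markers, Pdgfra among them, were all detected and summed to 5405 to 18938 CPM in the FB gate (CPM, counts of UMIs scaled to a total of 1000000). Markers of other cells were low there, with 6 neutrophil markers summing to 1.64 to 44.1 CPM and 8 epithelial markers to 12.9 to 128.6 CPM. The 8 leukocyte markers were higher with bleomycin, at 20.8 and 49.2 CPM in the single dose pair and 6.26 and 44.9 CPM in the repetitive pair, as were the 6 AEC2 markers, at 109.8 and 165 CPM and at 38.8 and 103 CPM. The 8 epithelial markers were lower with bleomycin, at 128.6 and 51.1 CPM and at 58.0 and 32.9 CPM. In single dose PBS 4 of the 8 (Epcam, Nkx2-1, Esrp1 and Elf3) were at 0, so its sum came from the others. The neutrophil sum was highest in single dose PBS, where Mmp9 was at 0. In single dose bleomycin, where it was 6.30 CPM, Retnlg was at 0 and the epithelial markers Esrp1 and Elf3 were at 0. A set of 14 immediate-early and heat shock genes, which respond to tissue digestion, summed to 13214 CPM in single dose PBS and 5079 in single dose bleomycin, and to 16342 and 8893 in the repetitive pair, so it was higher in each PBS library. The part of these genes in the results was not tested. The counts of 7 and 4 genes given next were the same with FBs lacking any neutrophil marker UMI. They were also the same after the lymphocyte level of each library was subtracted. That step raised the share of all genes counted higher to 30.8% after the single dose and 16.8% after repetitive dosing. It could hardly have changed the counts of 7 and 4 and is not read as support for them. Lymphocytes of single dose PBS held no UMI of the 8 genes. Those of single dose and repetitive bleomycin held at most 22.1% and 4.51% of the FB level. Those of repetitive PBS held at most 33.4%, for Lcn2, from 1 UMI (1.67 CPM against 5.01 in FBs).

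Levels are given as CPM, for which the UMIs of a gene and of all genes were summed over the FBs of a library before scaling. Intervals are 95% exact intervals and cover counting error alone. A gene was counted as higher or lower when its level differed at least 2-fold after adding 1 CPM and both libraries together held at least 20 UMIs, and without replicate libraries no significance can be attached to such a count.

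After a single dose of bleomycin, 7 of the 8 genes stood at least 2-fold higher in FBs than after PBS, where 9.25% of 12093 genes did. After repetitive bleomycin 4 of the 8 did (Saa3, Lcn2, Hp and Lrg1), where 6.26% of 17328 genes did. The median log2 ratio of the 8 genes was 2.70 after the single dose against 0.09 for all genes, and 2.09 against 0.10 after repetitive dosing. None of the 8 was 2-fold lower, where 3.74% and 1.61% of genes were. The 8 genes, and the pathway lists below, were chosen with earlier results of these data known. The values over all genes therefore give scale and are no test of the choice.

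Of the secreted carriers and binding proteins, Saa3 was at 5.24 CPM in single dose PBS, 486 in single dose bleomycin, 8.89 in repetitive PBS and 321 in repetitive bleomycin. That was a 92.7-fold difference after the single dose (interval 65.6 to 136) and 36.1-fold after repetitive dosing (33.1 to 39.4). The PBS levels rested on few cells. A single barcode held 17 of the 32 Saa3 UMIs in single dose PBS, and a single barcode held 281 of the 527 in repetitive PBS. Without the highest barcode of each library the PBS levels were 2.46 and 4.15 CPM, and the differences 176-fold (106 to 314) and 72.7-fold (64.1 to 82.8). Lcn2 was at 5.90 and 153 CPM in the single dose pair and at 5.01 and 90.8 CPM in the repetitive pair, 25.9-fold (18.6 to 37.1) and 18.1-fold (16.1 to 20.5) higher after bleomycin. Its 2 PBS levels could not be told apart by their intervals. Hp was measured well in every library, at 83.9 and 928 CPM after single dose PBS and bleomycin and at 62.4 and 640.4 CPM in the repetitive pair. The Hp difference was of like size in both experiments, 11.1-fold (10.1 to 12.1) and 10.3-fold (9.93 to 10.6). With other processing choices its log2 ratio ran from 2.36 to 4.27 after the single dose and from 2.78 to 3.91 after repetitive dosing. Lrg1 was almost undetected in PBS, with 2 UMIs in single dose PBS and 8 in repetitive PBS, and reached 36.8 CPM (386 UMIs) and 10.7 CPM (665 UMIs) with bleomycin. From so few PBS counts its ratios were wide, 112-fold (30.9 to 931) and 79.7-fold (40.2 to 185).

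Serpina3n and Cp differed from these in that they were abundant without injury. Serpina3n was at 317 and 887 CPM in the single dose pair, 2.80-fold (2.67 to 2.94), and at 292 and 523 CPM in the repetitive pair, 1.79-fold (1.76 to 1.82). Its sequence is close to that of other Serpina3 genes of the same cluster, and reads shared among them may have been split in counting. Cp was at 335 and 517 CPM in the single dose pair and at 792 and 939 CPM in the repetitive pair, ratios of 1.54 (1.47 to 1.62) and 1.19 (1.17 to 1.20). The level of Cp in repetitive PBS was above that in single dose bleomycin, so the PBS controls of both experiments differed by more than the bleomycin and PBS libraries did within either. The libraries also differed in the genes that were listed. Single dose PBS and bleomycin listed 30830 and 30828 genes, and each repetitive or organoid library listed 32285. The part of this in levels compared between the single dose and the other libraries, here and below, was not tested.

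The cytokine and the enzyme differed less between bleomycin and PBS than Saa3, Lcn2, Hp and Lrg1 did. Il6 was at 14.3 CPM in single dose PBS and 38.7 in single dose bleomycin, 2.71-fold higher (2.15 to 3.46). In the repetitive pair it was at 99.7 CPM after PBS and 96.5 after bleomycin, a ratio of 0.97 (0.93 to 1.00). Both repetitive libraries thus held more Il6 than single dose bleomycin, a comparison between libraries that listed different genes. Ch25h was at 11.3 and 46.5 CPM in the single dose pair, 4.11-fold (3.19 to 5.37), and at 10.3 and 14.4 CPM in the repetitive pair, 1.39-fold (1.26 to 1.55). The levels of Ch25h in single dose PBS overlapped those of both repetitive libraries in their intervals.

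**Figure D1:**
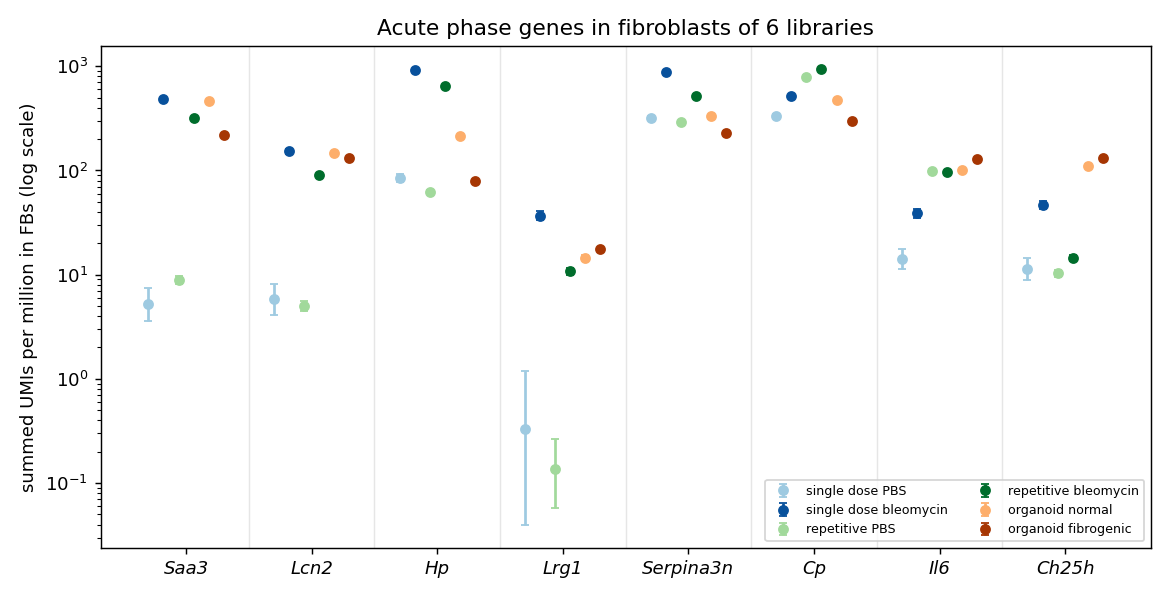
CPM of each gene in the FB gate of the 6 libraries (log axis), with exact 95% Poisson intervals as bars. Saa3, Lcn2, Hp and Lrg1 lie far apart between PBS and bleomycin lungs, whereas Cp lies between 301 and 939 CPM in all 6 libraries and Il6 is lowest in single dose PBS at 14.3 CPM.

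Because the libraries differed in depth, each FB was also thinned to 2000 UMIs and shallower FBs were left out (47, 40, 156 and 4032 FBs in single dose PBS, single dose bleomycin, repetitive PBS and repetitive bleomycin). At this depth Saa3 was detected in 0.69% of FBs in single dose PBS, 18.4% in single dose bleomycin, 0.13% in repetitive PBS and 7.22% in repetitive bleomycin. Without thinning the shares were 1.30%, 51.8%, 0.67% and 9.65%, so the share in single dose bleomycin moved strongly with depth. Hp was detected in 9.39% and 42.2% of thinned FBs of the single dose pair and in 5.61% and 30.4% of the repetitive pair. Lrg1 was found in none of the 873 thinned FBs of single dose PBS, which allows a share of up to 0.34% at a limit of 3 counts, and in 5.44% after the single dose of bleomycin. Il6 was in 1.83% and 4.47% of the single dose pair and in 7.69% and 8.98% of the repetitive pair. Cp was detected in 47.2%, 59.6%, 70.4% and 71.8% of thinned FBs in the same order.

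Lymphocyte barcodes, which should lack these transcripts, gave the level of free RNA. In repetitive bleomycin 141 lymphocytes (median 4040 UMIs) held no Saa3 UMI, and the highest of the 8 genes there was Serpina3n at 17.8 CPM. In repetitive PBS 136 lymphocytes (median 3345 UMIs) held no Saa3 UMI either. Only 17 lymphocytes were caught in single dose bleomycin (median 3392 UMIs, against 11144 in FBs), and they held Saa3 at 108 CPM, 22.1% of the FB level. Thinned to the same depth, 3 of these 17 had a Saa3 UMI, 17.6% (3.8% to 43.4%), which cannot be told apart from the 18.4% of FBs. Hp was in 4 of the 17, 23.5% (6.81% to 49.9%), an interval that holds the 42.2% of FBs. Lcn2, Lrg1, Il6 and Ch25h were in none of the 17, which allows up to 17.6% and so does not separate their FB shares either, while Serpina3n (66.3% of FBs) and Cp lay above the lymphocyte intervals. The shares of FBs with the other 6 genes in single dose bleomycin are therefore not read as expression, and the summed levels carry that comparison. The few non-FB cells of the sorts also held some of these transcripts. In repetitive PBS, 33 neutrophils had Hp at 1506 CPM and Lcn2 at 904 CPM, and 31 epithelial cells had Hp at 1310 CPM, Lcn2 at 414 CPM and Lrg1 at 126 CPM, whereas Saa3 was at 27.4 CPM (3 UMIs) in the neutrophils and 0 in the epithelial cells. In repetitive bleomycin 19 epithelial cells had Lcn2 at 1644 CPM and Lrg1 at 465 CPM.

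FBs of at least 2000 UMIs were next divided by marker genes into lipofibroblasts (LipoFB, 4 of 8 markers that included Tcf21 and Inmt), matrix FBs (MatrixFB, 3 of 7 that included Dcn and Col14a1), myofibroblasts (MyoFB, Cthrc1 with other markers), FBs with Sfrp1 that met none of those gates (Sfrp1+) and the rest. The gates do not part the programmes fully, since Spp1, one of the MyoFB markers, was at 5022 CPM in Sfrp1+ FBs and 10326 in the rest in single dose bleomycin, against 461 in LipoFBs and 15240 in MyoFBs. LipoFBs are lipid-storing cells next to AEC2, MatrixFBs lie in the adventitia and other matrix-rich sites, and MyoFBs are the contractile, collagen-producing cells of fibrosis. LipoFBs made up 614 of 873 and 316 of 827 FBs in single dose PBS and bleomycin, and 3821 of 5347 and 1713 of 5525 in the repetitive pair. No FB of either PBS library met the MyoFB gate, against 44 and 67 in the bleomycin libraries. Sfrp1+ FBs numbered 6 and 15 with PBS and 126 and 486 with bleomycin.

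With bleomycin, 7 of the 8 genes were at least 2-fold higher in LipoFBs than in MyoFBs in each experiment, all but Il6, where 11.3% of 9869 genes were after the single dose and 12.7% of 13453 genes were after repetitive dosing. The median log2 ratio of the 8 was 1.94 and 1.71, against 0.06 over all genes in each, and none of the 8 was 2-fold lower in LipoFBs, where 6.07% and 6.01% of genes were. Hp was at 1893 CPM in LipoFBs and 173 in MyoFBs after the single dose, 10.9-fold (9.25 to 13.0), and at 1153 and 93.8 CPM after repetitive dosing, 12.3-fold (10.4 to 14.7). Saa3 was 3.65-fold higher in LipoFBs (546 and 150 CPM, interval 3.04 to 4.42) and 11.0-fold higher after repetitive dosing (277 and 25.2 CPM, 7.93 to 15.7). After the single dose 1 LipoFB held 572 Saa3 UMIs. Without it LipoFBs were at 394 CPM, a smaller difference from MyoFBs. Lcn2 was at 325 CPM in LipoFBs and 16.1 in MyoFBs after the single dose, and at 112 and 37.1 CPM after repetitive dosing. Lrg1 had 2 UMIs in the MyoFBs of single dose bleomycin and 0 in those of repetitive bleomycin, where LipoFBs stood at least 2.66-fold higher. Il6 was the exception, at 29.7 CPM in LipoFBs and 24.7 in MyoFBs after the single dose, and at 93.3 and 129.5 CPM after repetitive dosing, a ratio of 0.72 (0.62 to 0.84). The MyoFB levels came from 44 and 67 cells, of 3 pooled mice each. After the single dose, some of these levels were also near those of lymphocytes, which are read below as free RNA. Lymphocytes of single dose bleomycin held Saa3 and Hp at 108 CPM (6 UMIs each) and Lcn2 at 17.9 CPM (1 UMI). The part of free RNA in the single dose MyoFB levels of these genes, and so in their ratios, was not tested.

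The genes did not share a single peak among the subsets. Hp was highest in LipoFBs in both bleomycin libraries, with 292 and 218 CPM in MatrixFBs and 563 and 1040.2 CPM in Sfrp1+ FBs, which came close to the 1153 CPM of LipoFBs after repetitive dosing. LipoFBs held 72.5% and 65.5% of all Hp UMIs while holding 35.6% and 36.7% of the UMIs of all genes. Saa3 was highest in Sfrp1+ FBs, at 747 CPM after the single dose and 1369 CPM after repetitive dosing, against 335 and 172 CPM in MatrixFBs. Against LipoFBs this was 1.37-fold (1.28 to 1.47) and 4.94-fold (4.78 to 5.11). These ratios depended on the highest Saa3 barcode of each library, a LipoFB after the single dose and an Sfrp1+ FB after repetitive dosing. Without it LipoFBs were at 394 CPM after the single dose and Sfrp1+ FBs at 1176 CPM after repetitive dosing, and Sfrp1+ FBs stayed highest. In repetitive bleomycin Sfrp1+ FBs held 43.3% of the Saa3 UMIs and 10.5% of all UMIs, and Lcn2 was also highest there, at 295 CPM against 112 in LipoFBs, whereas after the single dose Lcn2 was highest in LipoFBs (325 CPM against 90.8 in Sfrp1+ FBs). Serpina3n was highest in MatrixFBs, at 1380 CPM after the single dose and 685 after repetitive dosing, against 974 and 510.1 CPM in LipoFBs. Lrg1 changed place between the experiments. After the single dose LipoFBs held 62.6 CPM and MatrixFBs 33.1, and after repetitive dosing MatrixFBs held 19.8 CPM and LipoFBs 5.58, 3.55-fold higher in MatrixFBs (2.88 to 4.40). MatrixFBs held 64.8% of the Lrg1 UMIs of repetitive bleomycin, and LipoFBs 60.4% of those of single dose bleomycin. Cp was highest in LipoFBs in both, at 748 and 1227 CPM.

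The PBS libraries showed which of these differences were present without bleomycin. Hp was already higher in LipoFBs than in MatrixFBs, at 97.4 and 19.7 CPM in single dose PBS and 75.9 and 30.9 CPM in repetitive PBS. Il6 was higher in MatrixFBs in both, at 48.3 against 7.33 CPM (6.58-fold, 4.12 to 10.7) and 181 against 72.5 CPM (2.49-fold, 2.36 to 2.64). For Saa3 this comparison rested on 1 LipoFB a library. MatrixFBs and LipoFBs held 5.91 and 4.73 CPM in single dose PBS, a ratio of 1.25 (0.41 to 3.23), and 11.6 and 9.11 CPM in repetitive PBS, 1.28 (1.04 to 1.55). Without that barcode LipoFBs held 0.71 CPM (3 UMIs) and 2.44 CPM. MatrixFBs held 6 and 137 Saa3 UMIs in all, and no order of these subsets is read from so few cells.

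Bleomycin was also compared with PBS inside a single gate. The gated cells still differed, since LipoFBs held Inmt at 10798 CPM in single dose PBS and 3543 in single dose bleomycin, and Sfrp1 at 36.2 and 339.7 CPM. In single dose LipoFBs all 8 genes stood at least 2-fold higher with bleomycin, where 6.35% of 10589 genes did, Cp least, at 2.05-fold (1.93 to 2.19), and Hp at 19.4-fold (17.6 to 21.5). In single dose MatrixFBs the 7 genes other than Il6 did, where 5.97% of 9129 genes did, Saa3 at 56.6-fold (25.9 to 155) and Serpina3n at 3.87-fold (3.47 to 4.33). Lcn2 and Lrg1 were at 0 in the PBS MatrixFBs and stood at least 15.9-fold and 11.2-fold higher with bleomycin. In repetitive LipoFBs Saa3, Lcn2, Hp and Lrg1 were again the 4 past 2-fold, where 5.49% of 15184 genes were, with Hp at 15.2-fold (14.6 to 15.8). In repetitive MatrixFBs Serpina3n joined them at 2.35-fold (2.27 to 2.44), so that 5 of the 8 were 2-fold higher, where 3.12% of 14289 genes were, and Il6 was 2-fold lower, where 1.6% were. The near-equal Il6 level of the repetitive pair hid opposite differences in the gates. It was at 72.5 CPM in PBS and 93.3 in bleomycin LipoFBs, 1.29-fold higher (1.21 to 1.36), and at 181 CPM in PBS and 79.2 in bleomycin MatrixFBs, 2.28-fold lower (2.14 to 2.44).

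**Figure D2:**
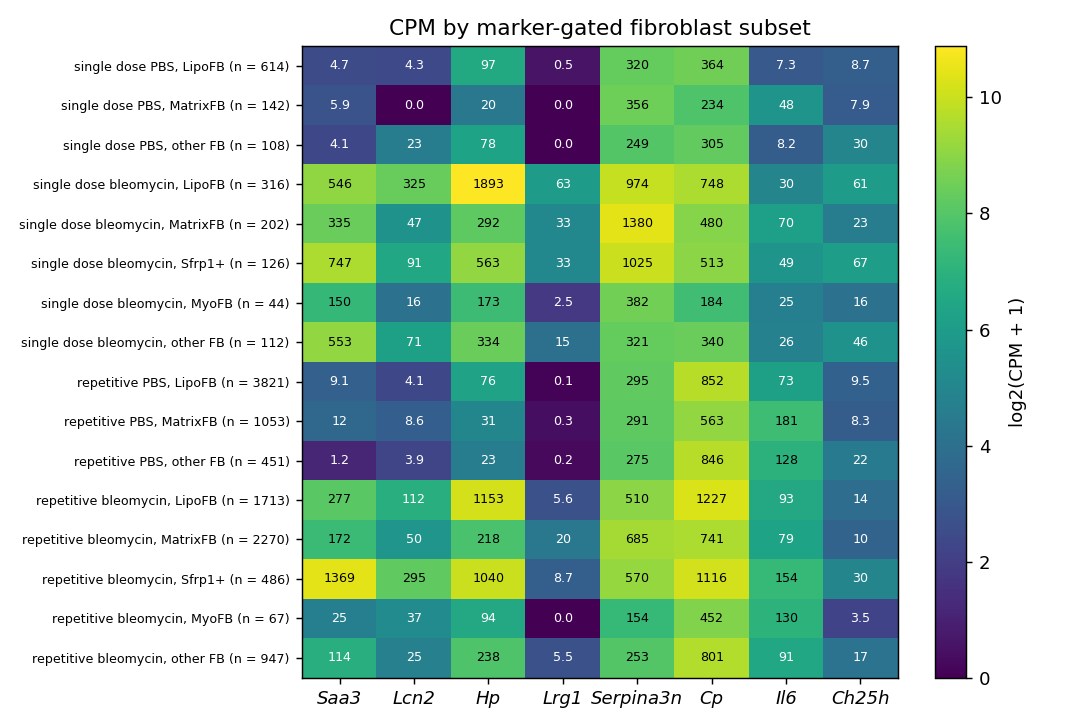
CPM of each gene (columns) in marker-gated subsets of at least 20 FBs from the 4 lung libraries (rows, n in FBs), with colour on the log2(CPM + 1) scale and the CPM printed in each cell. Hp peaks at 1893 CPM in single dose bleomycin LipoFBs, Saa3 at 1369 CPM in repetitive bleomycin Sfrp1+ FBs, and 7 of the genes are at least 2-fold lower in the MyoFB than the LipoFB row of each bleomycin library.

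Saa3 was carried by a minority of cells. At 2000 UMIs each, the top 5% of FBs held 84.5% of the Saa3 UMIs in single dose bleomycin and 95.6% in repetitive bleomycin. Lcn2 was about as concentrated (80.3% and 93.0%), Hp less so (48.1% and 56.6%), and Serpina3n (23.8% and 28.2%) and Cp (22.8% and 19.8%) were spread over most cells. Scarce genes also stood high, Lrg1 at 95.2% and 100%, Ch25h at 91.6% and 100% and Il6 at 100% and 75.3%. The share depends on how many thinned FBs held the gene, so it also follows abundance. The highest barcode held 572 of 5095 Saa3 UMIs (11.2%) in single dose bleomycin and 1180 of 19839 (5.95%) in repetitive bleomycin. FBs with at least 1000 CPM of Saa3 numbered 56 of 827 and 181 of 5525 in the bleomycin libraries, against 1 of 873 and 4 of 5347 in the PBS libraries. In repetitive bleomycin 8.85% of Sfrp1+ FBs (6.48% to 11.7%) reached that level, 2.69% of LipoFBs (1.97% to 3.57%) and 1 of 67 MyoFBs. These shares are of unthinned cells, with median depths of 10911 UMIs in Sfrp1+ FBs and 11231 in LipoFBs, and the single dose counts were not separated from free RNA.

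**Figure D3:**
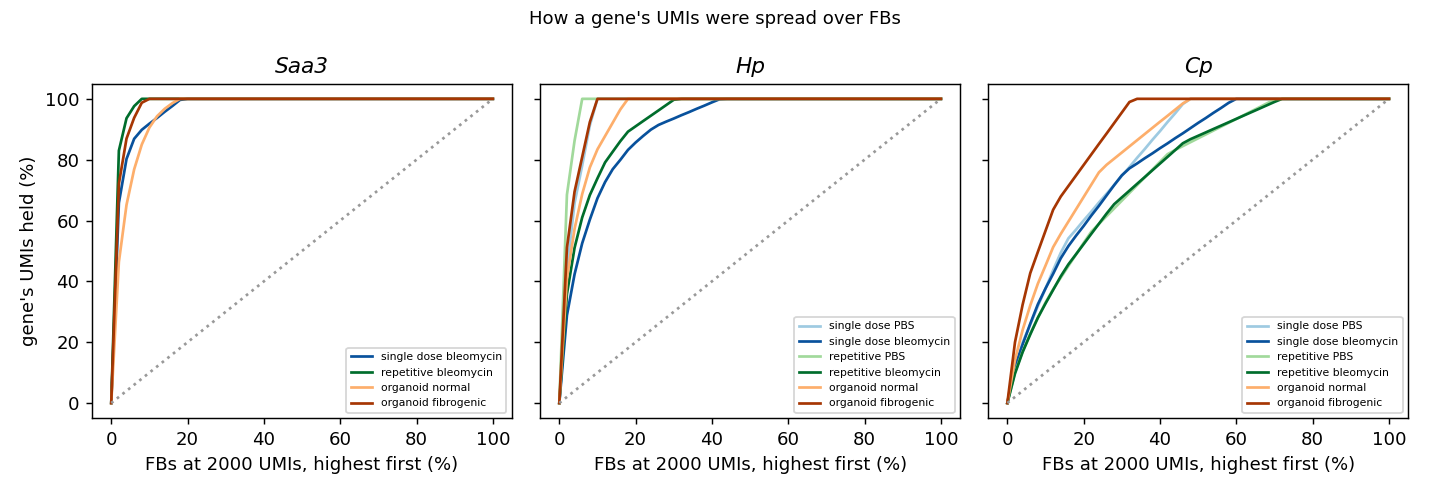
Cumulative share of the UMIs of Saa3, Hp and Cp (vertical axis, %) held by FBs thinned to 2000 UMIs and ordered from highest to lowest (horizontal axis, %), 1 line a library, with an even spread dotted and PBS libraries left out for Saa3. The Saa3 lines rise steeply, with 95.6% of UMIs in the top 5% of repetitive bleomycin FBs, and the Cp lines lie nearer the dotted line, with 19.8%.

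The genes were then compared within single FBs, at equal depth. In repetitive bleomycin, where no lymphocyte held a Saa3 UMI, 112 of 399 FBs with Saa3 also had Lcn2, 28.1% (23.7% to 32.8%), against 4.39% of FBs without Saa3. Hp was found in 55.4% of FBs with Saa3 and 28.4% of those without, and Il6 in 19.8% and 8.13%. Ch25h was in 3.51% and 2.15%, with overlapping intervals. Within subsets of that library, Lcn2 was in 38.3% of LipoFBs with Saa3 and 5.44% of those without, in 18.1% and 3.39% of MatrixFBs, and in 41.2% and 5.74% of Sfrp1+ FBs. Cells of a library share its free RNA, so these shares describe the cells and carry no test. In single dose bleomycin the same split gave Lcn2 in 35 of 152 FBs with a Saa3 UMI, 23.0% (16.6% to 30.5%), and 7.56% of the others, but there a Saa3 UMI was not told apart from free RNA, so these shares are given as detection alone.

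The 8 genes were also counted per cell. At least 4 were found in 117 of 827 thinned FBs (14.1%) in single dose bleomycin and 409 of 5525 (7.40%) in repetitive bleomycin, against 0 of 873 in single dose PBS and 18 of 5347 (0.34%) in repetitive PBS. In the organoids 217 of 2194 normal FBs (9.89%) and 174 of 3498 fibrogenic FBs (4.97%) held at least 4. The single dose bleomycin count includes UMIs that the background did not separate from free RNA. The organoid counts are detection alone, since they include Lcn2 and Lrg1, in which the epithelium was rich, and Hp, which it also held. No background share was measured for these genes. At 2000 UMIs the most in a single FB was 7, in repetitive bleomycin and in the normal organoid.

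**Figure D4:**
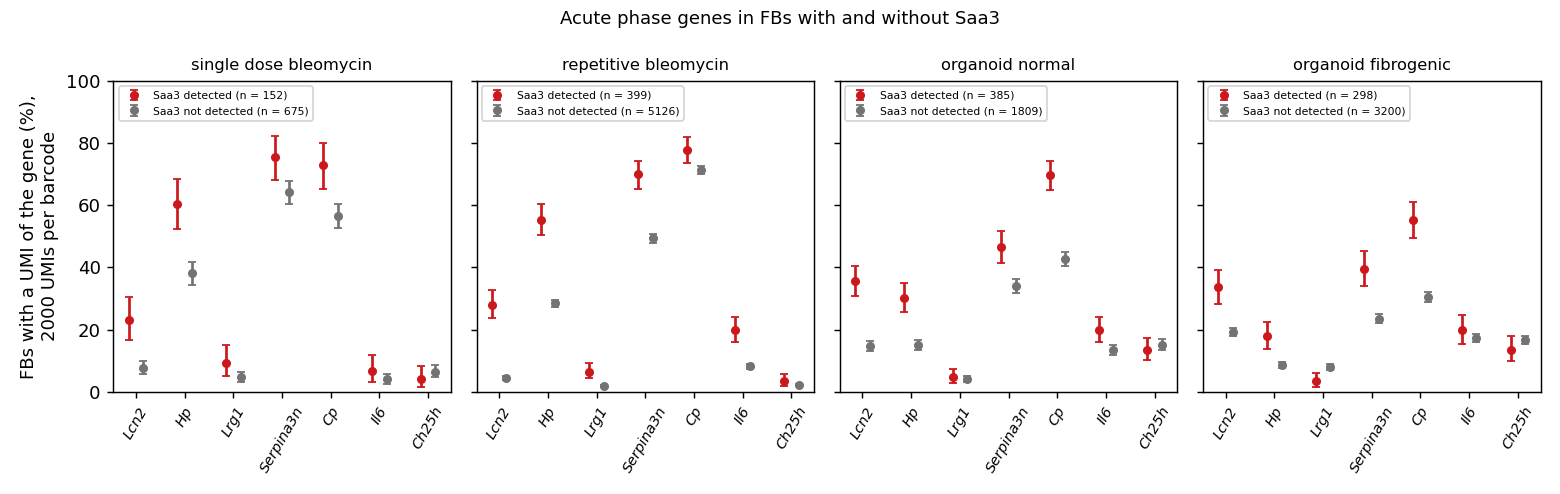
Share of FBs with at least 1 UMI of each other gene (%, 0 to 100), among FBs with Saa3 (red) and without it (grey), all thinned to 2000 UMIs, with exact 95% binomial intervals, in the 2 bleomycin and 2 organoid libraries. Lcn2 and Hp lie apart in all 4 panels, such as 28.1% against 4.39% for Lcn2 in repetitive bleomycin, the Ch25h intervals overlap, and the single dose and organoid panels show detection that was not separated from free RNA.

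Other genes of the response were read from 4 lists of pathway genes. Of 22 other acute phase proteins, 9 had enough UMIs to be tested in the single dose pair and 5 were at least 2-fold higher with bleomycin (9.25% of all genes were), among them Saa1 (0 to 11.4 CPM), the pentraxin Ptx3 (0.98 to 16.4 CPM), the metalloreductase Steap4 (26.5 to 74.2 CPM) and Serpina3g (13.3 to 54.2 CPM), while Itih4 was lower (3.74% of all genes were). In the repetitive pair 4 of 10 were higher (Serpina3g, Steap4, Itih4 and Saa1) and none lower, against 6.26% and 1.61% of all genes. These shares of all genes also stand behind the counts of the next 3 lists. Saa1 and Saa2 are near-identical copies, so their counts are uncertain. Of 10 cytokines, Il33, an alarmin, was higher in both experiments, at 24.3 and 77.6 CPM and at 28.7 and 79.8 CPM. The Il6-family cytokines Lif (13.8 and 40.0 CPM) and Il11 (4.42 and 11.7 CPM) were higher after the single dose, with 3 of 5 tested cytokines higher and 1, Il1b, lower. In the repetitive pair 2 of 7 were higher (Il33 and Il1b). The neutrophil markers in the FB gate differed in the directions of Il1b, at 44.1 and 6.30 CPM in the single dose pair and 1.64 and 5.06 CPM in the repetitive pair. Their part in Il1b was not tested.

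The 20 receptors and signalling genes had a median log2 ratio of 0.33 after the single dose and -0.02 after repetitive dosing, against 0.09 and 0.10 for all genes. Of the 20, Il17ra, Bcl3 and Il1r1 were 2-fold higher after the single dose, and none was after repetitive dosing. Il6ra, the ligand-binding interleukin 6 receptor, was lower with bleomycin in both experiments, at 64.1 and 14.3 CPM and at 86.1 and 33.0 CPM. Cebpd, a C/EBP factor of the acute phase, was lower after repetitive dosing, at 860 and 399 CPM, in the direction of the immediate-early genes above. Of 15 genes that act with the 8, Cyp7b1, the enzyme that breaks down 25-hydroxycholesterol, was at 10.8 and 60.3 CPM in the single dose pair and at 51.8 and 335 CPM in the repetitive pair. Slc40a1, the iron exporter that works with ceruloplasmin, was at 11.7 and 48.1 CPM in the repetitive pair and, short of 2-fold, at 14.1 and 27.8 CPM in the single dose pair. Both were lower in fibrogenic than in normal organoid FBs, Cyp7b1 at 151 and 70.3 CPM and Slc40a1 at 26.3 and 7.37 CPM from normal to fibrogenic. In all, 2 of 10 tested partners were higher and 1 lower (Insig1) after the single dose, against 9.25% and 3.74% of all genes, and 4 of 13 higher and none lower after repetitive dosing.

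Across 26 groups of FBs (subsets of the 6 libraries, 16 from lungs), the genes with the most similar pattern of log2 CPM were ranked among 12653 genes by Pearson's r. Groups of the same library share its depth and free RNA, so r is a description. For Saa3 they were Chl1 (0.91), Il13ra1 (0.89), Batf3 (0.88), Serpina3i (0.88) and Lrg1 (0.87), for Lcn2 Mmp8 (0.87), Slc16a1 (0.86), Mrap (0.86), Saa3 (0.85) and Col4a2 (0.84), and for Hp Emilin1 (0.82), Ptger3 (0.82), Serpina3i (0.82), Wfdc12 (0.81) and Saa1 (0.81). For Il6 they were Atp2a2 (0.94), Zfp516 (0.91), Ibtk (0.91), Ndst1 (0.90) and Fndc3b (0.90), none of them among the 8. Between the genes themselves, r was 0.85 for Saa3 and Lcn2, 0.76 for Saa3 and Hp, 0.26 for Saa3 and Il6 and -0.13 for Hp and Il6. Over the 16 lung groups alone these were 0.85, 0.89, 0.16 and -0.03.

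In the organoids, FBs had been in culture with AEC2 for 2 weeks, and the normal FBs held Saa3 at 469 CPM, which overlapped single dose bleomycin lungs in its interval and was above both PBS lungs. Fibrogenic FBs held 221 CPM, 2.13-fold less (2.10 to 2.15). Hp was at 216 CPM in normal and 79.6 in fibrogenic FBs, 2.71-fold lower (2.65 to 2.77). These were the 2 of the 8 genes at least 2-fold lower, where 0.702% of 17953 genes were, and none of the 8 was 2-fold higher, where 0.251% of genes were. The 2-fold limit was no longer met by Saa3 over all barcodes (log2 ratio -0.77), without cycling, mesothelial and smooth muscle FBs (-0.98) or in MyoFB cells (-0.40), nor by Hp over all barcodes (-0.62). Lcn2 was at 148 and 133 CPM, Serpina3n at 332 and 227 CPM and Cp at 472 and 301 CPM. Il6 was at 102 CPM in normal and 129 in fibrogenic FBs and Ch25h at 111 and 133 CPM, and both genes were higher in the fibrogenic organoid FBs than in any lung library. The median log2 ratio of the 8 was -0.35 against -0.01 for all genes. The fibrogenic library was shallower, with 30.1% of its FBs under 2000 UMIs against 4.77%. At equal depth Saa3 was in 17.5% of normal and 8.52% of fibrogenic FBs, Hp in 17.6% and 9.35%, and Il6 in 14.5% and 17.5%. Among epithelial cells of the normal and fibrogenic organoid, Saa3 was in 0.58% and 1.26%, Il6 in 0.70% and 1.26%, and Hp in 18.2% and 22.6%. The FB shares of Hp are therefore given as detection alone. Lcn2 went the other way from its summed level, in 18.3% of normal and 20.4% of fibrogenic FBs and at 205 and 247 CPM in the thinned cells.

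No organoid FB met the LipoFB gate, so the subset that held most Hp in lungs was not represented, and 832 and 1301 FBs were Sfrp1+ and 298 and 509 met the MyoFB gate. These 2 gates overlapped in their markers. Spp1 was at 16918 and 11511 CPM in MyoFB cells, below the 21006 and 13456 CPM of Sfrp1+ cells. MyoFB cells also held Sfrp1, at 524 and 681 CPM. They stood apart in Cthrc1, at 240 and 183 CPM against 28.9 and 39.7 in Sfrp1+ cells. Saa3 was at 800 CPM in Sfrp1+ and 98.2 in MyoFB cells of the normal organoid, 8.15-fold (7.79 to 8.54). In the fibrogenic one it was at 378 and 74.0 CPM, 5.12-fold (4.91 to 5.34). Without the highest Saa3 barcode the Sfrp1+ cells of the fibrogenic organoid were at 333 CPM. Lcn2, Hp and Cp were also at least 2-fold higher in Sfrp1+ than in MyoFB cells in both organoids, from 2.21-fold to 2.78-fold, where 2.15% of 14640 genes were in the normal and 0.997% of 15247 in the fibrogenic one, and Lrg1 was in the fibrogenic one. Ch25h was not, with ratios of 0.97 (0.92 to 1.02) and 0.83 (0.80 to 0.86). Sfrp1+ cells did not hold the most Hp, at 235 and 91.3 CPM against 345 and 126 in cycling FBs and 227 and 88.8 in the rest. Cp was at 550 and 438 CPM in Sfrp1+ cells and at 619 and 376 CPM in the rest, so it was higher in the rest of the normal organoid alone. Sfrp1+ cells were shallower than MyoFB cells, with median depths of 43036 and 62594.5 UMIs in the normal organoid and 18863 and 69419 in the fibrogenic one. The part of depth and of free epithelial RNA in the Lcn2 and Lrg1 ratios was not tested. A Lcn2 UMI was found in 35.6% of normal FBs with Saa3 and 14.6% of those without, and in 33.6% and 19.2% of fibrogenic FBs. These shares are detection alone, since no background share was measured for Lcn2 and the epithelial cells of the same organoids were rich in it.

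The epithelial cells of the same organoids separated the genes by source. Lcn2 was at 4646 and 3936 CPM in epithelial cells of the normal and fibrogenic organoid, 31.4-fold and 29.6-fold above the FBs, and Lrg1 at 1424 and 1115 CPM, 97.6-fold and 63.6-fold above. Saa3 was at 2.45 and 4.24 CPM there, and FBs held 192-fold and 52.1-fold more. Serpina3n (2.68 and 3.83 CPM), Il6 (2.10 and 3.33 CPM) and Ch25h (0.57 and 1.57 CPM) were likewise low in epithelium, and Cp was at 29.3 and 34.1 CPM. Hp stood between, at 133 and 221 CPM in epithelial cells, below the FBs in the normal and above them in the fibrogenic organoid. Within the epithelium Hp was higher in AEC1-like cells (323 and 446 CPM) than in AEC2-like cells (81.4 and 137 CPM), whereas Lcn2 was highest in AEC2-like cells (6314 and 5753 CPM). These were minorities, of 117 and 147 AEC1-like and 323 and 316 AEC2-like cells. A gate for transitional markers such as Cldn4 and Sfn took precedence and held 1242 and 918 cells, with Hp at 129 and 216 CPM. These gates counted a marker with any UMI, so deep cells could meet the transitional gate more easily. Median depths were 42871 and 39673 UMIs in transitional, 29223 and 22813 in AEC1-like and 21679 and 9199 in AEC2-like cells. The part of depth in these differences was not tested.

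UMIs of AEC2 markers were also counted in the FB barcodes, and their source was not tested. The 6 AEC2 markers summed to 417 and 683 CPM in FBs, 0.53% and 0.96% of their epithelial level, a sum that was mostly Sftpc. The AEC2 marker Abca3 stood at 4.41% and 6.35% of its epithelial level. FB Lrg1 stood at 1.02% and 1.57% of its epithelial level, and FB Lcn2 at 3.18% and 3.38%. The ratio of Lcn2 to Lrg1 was 3.26 and 3.53 in epithelial cells and 10.1 and 7.58 in FBs. The part of free epithelial RNA in FB Lcn2 and Lrg1 was not tested. Saa3, Serpina3n, Il6 and Ch25h were lower in the epithelium than in FBs in both organoids.

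**Figure D5:**
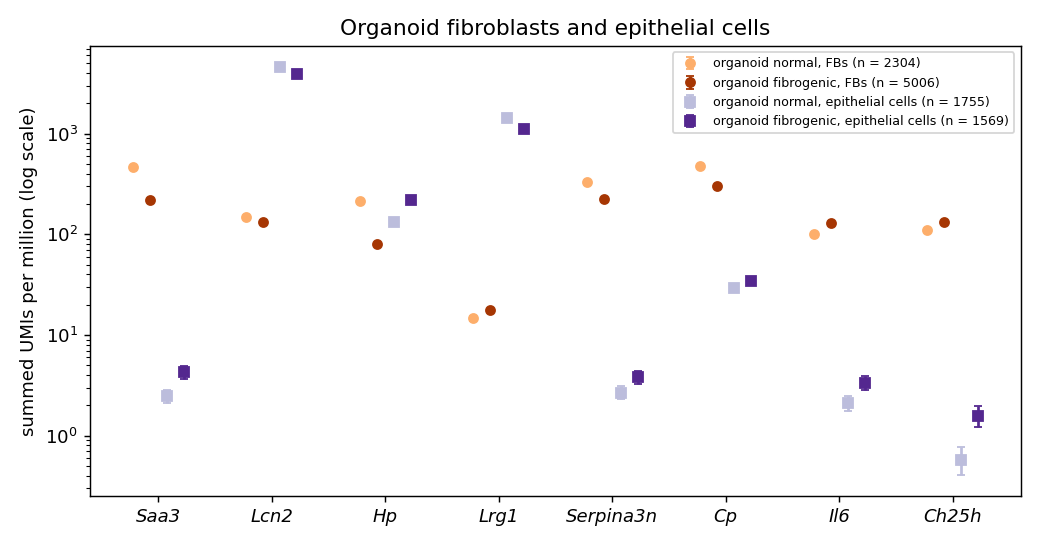
CPM of each gene (log axis) in FBs (circles) and epithelial cells (squares) of the normal and fibrogenic organoid, with exact 95% Poisson intervals and the number of cells in the key. Lcn2 and Lrg1 lie highest in epithelial cells (4646 and 1424 CPM in the normal organoid), and Saa3, Serpina3n, Il6 and Ch25h lie 38.7-fold or more above epithelium in FBs.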

How the data were processed

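Single-cell libraries (10x) were made from GFP+ lung FBs and from organoids, 1 library of 3 pooled mice a group. The deposited tables hold raw UMI counts, with genes as rows and barcodes as columns; the submitters' processing notes name Cell Ranger 3.0.1, mm10 and Seurat 3. No cell annotation was used, so classes were rebuilt. A barcode with 3 or more of the 8 markers of FBs, epithelial cells, endothelial cells or leukocytes joined the class with most markers, and leukocytes with 2 or more lymphocyte, neutrophil or macrophage markers were named by the most markers; barcodes with a second class at 4 or more markers were set apart as mixed, which was the only handling of doublets. Epithelial subset gates needed 2000 UMIs and counted a marker with any UMI. FB subset gates needed 2000 UMIs and markers at 2 or more UMIs. LipoFB and MatrixFB markers, Sfrp1 and the MyoFB markers other than Cthrc1 also needed 300 CPM. Cthrc1 and the cycling, mesothelial and smooth muscle markers did not, so deep barcodes could meet those gates more easily. Median depths in the fibrogenic organoid were 80336 UMIs in smooth muscle and 86905 in cycling cells, against 18863 in Sfrp1+ cells. All gate limits were set after marker levels were seen. Libraries shared 0 to 30 barcodes a pair. Python 3.11.15 with numpy 2.4.6, scipy 1.17.1, pandas 2.3.3 and matplotlib 3.10.9 summed UMIs to CPM, with exact Poisson, Clopper-Pearson and conditional binomial 95% intervals; UMIs without replicate libraries give counting error only. Calls needed a 2-fold ratio of CPM + 1 and 20 UMIs; printed ratios carry no added CPM, and a level of 0 was set to 3 counts over the group. The ratio and its interval were tested on simulated data. Thinning drew 2000 UMIs per barcode with a fixed seed. With 1 library a group, no test of a condition was run, and the lung experiments, which differed in dosing, were not pooled or paired. The 8 genes, the marker lists and the pathway lists were chosen with earlier results of these data known. Genes named outside them were the 5 closest patterns of Saa3, Lcn2, Hp and Il6, and members of the pathway lists past 2-fold. The stress list, and the alternatives noted as added, were chosen after seeing the data.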

Additional observations from a re-analysis of the deposited data

Results flagged for a closer look

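For 5 genes the difference between FBs of bleomycin and PBS mice had opposite signs in culture and in lungs. Log2 ratios of CPM + 1, fibrogenic over normal, were -1.08 for Saa3, -0.15 for Lcn2, -1.43 for Hp, -0.55 for Serpina3n and -0.65 for Cp in organoid FBs. Bleomycin over PBS in freshly sorted FBs gave 6.29, 4.48, 3.45, 1.48 and 0.62 in the same order after the single dose and 5.02, 3.93, 3.34, 0.84 and 0.25 after repetitive dosing. The organoid sign of Lcn2 did not hold, at 0.75 with means of per-barcode CPM, 0.02 without cycling, mesothelial and smooth muscle FBs, 0.06 in Sfrp1+ and 0.19 in MyoFB cells, and at equal depth Lcn2 was in 20.4% of fibrogenic and 18.3% of normal FBs. Cp was level in MyoFB cells. Each value is 1 library against 1, and the difference between the experiments was not tested. Organoid and lung FBs also differed in culture, in gates (no LipoFB in organoids) and in depth.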

How the results depend on the processing

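Other choices were tried 1 at a time: another pseudocount, UMI minimum, fold limit or centring, no or stricter FB gates, deeper barcodes alone, means of per-barcode CPM, removal of FBs with neutrophil markers or of cycling, mesothelial and smooth muscle FBs, and other thinning or subset gates. Single subsets, removal of the highest Saa3 barcode, subtraction of the lymphocyte level and removal of barcodes with epithelial markers were added after seeing the data. With means of per-barcode CPM, 1 gene (Lrg1) became 2-fold higher in organoids, where none was. The share of Saa3-positive FBs with Lcn2 moved from 23.0% to 35.9% without thinning (23.4% in the others) and 35.6% when 2 UMIs of Saa3 were required (8.46%) after the single dose, and from 28.1% to 33.6% (8.29%) and 41.4% (4.64%) after repetitive dosing. The other 58 values of this kind, counts of genes higher and shares with Lcn2, kept their side or stayed within the stated spread. The 2-fold lower calls of Saa3 and Hp in organoids were lost in the settings given with them. A 3-fold limit left 5 genes higher after the single dose and 4 after repetitive dosing. The sign of the member ratios was kept in 112 of 112 single dose, 110 of 112 repetitive and 96 of 104 organoid settings, and 25, 33 and 52 of them moved by more than the counting interval. Log2 ratios that changed sign were Il6 in the repetitive pair (-0.05; 0.18 with per-barcode means and 0.36 in LipoFBs) and Lrg1, Lcn2, Ch25h and Cp in organoids, such as Lrg1 (0.25; -0.84 over all barcodes). The cause was not tested. No paired analysis was possible because the groups compared share fewer than 2 replicate numbers, and no replicate could be left out. A fit with the single dose and repetitive experiments as 2 pairs, which would treat different dosing as replicates, was not run. Depth limits the PBS levels of Lrg1 (2 and 8 UMIs) and the 17 lymphocytes of single dose bleomycin.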
